A study of Mus musculus with 2 samples.

Results

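The 41 genes described here are the mouse protein-coding genes whose symbols begin with Dusp or Ptpn followed by a digit, 24 Dusp and 17 Ptpn genes of 21536 protein-coding genes with a usable transcription start site (TSS) on mm10. The series located MEF2A, which belongs to the MADS-box family and recognises an AT-rich DNA element, by chromatin immunoprecipitation and sequencing (ChIP-seq) in CH12.LX, a B cell lymphoma line from the mouse strain B10.H-2aH-4bp/Wts. It holds 1 group of 2 biological replicates from separate biosamples of this line, with no second condition, so the comparisons are between the families, between them and the other protein-coding genes, and between the replicates. The files are peak lists. They hold no expression values, so the cell type could not be checked against its markers, and the read depth behind each peak is unknown. The optimal peak set on mm10, made with the irreproducible discovery rate procedure, held 31497 peaks, and a separate list held 16839 peaks on mm9. Each peak has the authors' own signal value, used here only to rank peaks within a list, with rank 1 the strongest. A gene was counted when a peak summit lay within 10 kb of a TSS of the gene or inside the gene.

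Dual-specificity phosphatases remove phosphate from both tyrosine and serine or threonine residues. The typical MAP kinase phosphatases among them (MKPs) bind an active MAP kinase, either ERK, JNK or p38, and switch it off, and several are made as immediate feedback on the kinase they inactivate. The Ptpn genes encode cytoplasmic tyrosine phosphatases without a transmembrane segment. In B cells, the SH2-domain phosphatase encoded by Ptpn6 is recruited by inhibitory receptors and lowers B cell receptor signalling, and the phosphatase encoded by Ptpn22 acts on Src family kinases.

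Peaks with a MEF2 element at the summit are shown first, since this is the element that the factor binds. Sequence was read for the mm9 list from the mm9 genome, 81 bp around each summit on the plus strand, with the matched element in capitals. Of the 8 member peaks with a match to the MEF2 consensus within 50 bp of the summit, these 7 are in order of rank, from 446 at Dusp16 to 12264 at Ptpn18, and the 8th is the only mm9 peak of Ptpn2.
Dusp16, chr6:134742646-134742726: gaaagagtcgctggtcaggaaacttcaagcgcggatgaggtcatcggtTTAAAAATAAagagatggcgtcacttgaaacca
Ptpn1, stronger peak, chr2:167761669-167761749: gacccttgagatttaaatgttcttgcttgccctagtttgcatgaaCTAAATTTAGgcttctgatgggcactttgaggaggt
Ptpn1, weaker peak, chr2:167768695-167768775: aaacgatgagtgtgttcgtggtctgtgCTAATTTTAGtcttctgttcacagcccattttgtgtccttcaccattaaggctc
Dusp22, chr13:30770939-30771019: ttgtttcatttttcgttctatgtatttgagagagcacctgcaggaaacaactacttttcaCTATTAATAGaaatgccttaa
Dusp14, chr11:83877452-83877532: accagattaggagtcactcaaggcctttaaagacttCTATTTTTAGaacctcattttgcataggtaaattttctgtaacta
Ptpn5, chr7:54368933-54369013: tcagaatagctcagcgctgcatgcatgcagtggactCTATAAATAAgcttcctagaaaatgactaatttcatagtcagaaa
Ptpn18, chr1:34521603-34521683: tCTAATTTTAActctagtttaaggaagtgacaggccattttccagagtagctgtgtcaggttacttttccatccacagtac
The Dusp16 peak had its summit 43 bp upstream of a TSS on mm9, and the other 7 summits, that of Ptpn2 included, lay in introns. The centre of the element lay between 0.5 bp from the summit at Dusp14 and Ptpn5 and 34.5 bp from it at Ptpn18. The strongest mm9 peak of any member, at the Dusp8 promoter (mm9 rank 293), had no MEF2 match and held a cyclic AMP response element (CRE, TGACGTCA), whose centre lay 5.5 bp from the summit.
Dusp8, chr7:149281214-149281294: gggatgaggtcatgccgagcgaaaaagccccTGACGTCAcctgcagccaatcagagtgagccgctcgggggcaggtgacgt
A further CRE at Dusp8 lay 38.5 bp from the summit, at the edge of the window printed. The strongest mm9 peaks of Dusp14 (rank 589) and Dusp22 (rank 736) also lacked the MEF2 consensus. That of Dusp14 held an AP-1 site 18 bp from the summit, and that of Dusp22 held the core of the MEF2 element only.

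Across the families, the MEF2 consensus was found in 3 of 35 Dusp peaks (8.57%) and 5 of 37 Ptpn peaks (13.5%) on mm9, beside 7.13% of all 16839 mm9 peaks. The core of the element, TANNNNTA with A or T at each N, is contained in the consensus. It was found in 7 of 35 Dusp peaks (20%) and 7 of 37 Ptpn peaks (18.9%), beside 11.2% of all mm9 peaks. Over the whole interval in place of 50 bp to either side, 3 Dusp and 8 Ptpn peaks held the consensus, beside 10.3% of all mm9 peaks. AP-1 sites (TGACTCA) were found in 4 Dusp and 2 Ptpn peaks, beside 10.7% of all mm9 peaks. NF-kB sites were found in 5 Dusp and 2 Ptpn peaks, beside 8.37%, and the CRE in the Dusp8 peak alone of the member peaks, beside 1.09%. The E-box CAGGTG was found in 7 Dusp and 4 Ptpn peaks, beside 10.1%, and the GC box GGGCGG in 0 Dusp and 5 Ptpn peaks, beside 8.16%. In the Dusp8 peak the CRE printed above overlaps the E-box, read on the other strand. PU.1 sites (GAGGAAGT) were found in 2 Dusp and 2 Ptpn peaks, beside 3.24%, and RUNX sites (TGTGGTT) in 2 Dusp and 0 Ptpn peaks, beside 5.99%. The ETS site CCGGAAG was found in 1 Ptpn peak, beside 3.68%, the octamer ATGCAAAT in 1 Ptpn peak, beside 3.12%, and the CTCF motif in 1 Ptpn peak, beside 2.08%. No member peak held the CArG box, the ETS-IRF composite element or the EBF1 motif, which 0.879%, 4.40% and 1.21% of all mm9 peaks held. All motifs were read on both strands, and these are counts of exact letters in a fixed window.

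RefSeq promoters (GRCm38.p6, 250 bases before to 50 after the start) were held for 33 of the 41 genes, 18 Dusp and 15 Ptpn genes, with 40 promoters in all. Of the 7 typical MKP promoters with an optimal summit inside, the 4 with a match to a motif other than the E-box and GC box are printed on the strand of the gene, with the CRE, the MEF2 consensus, the CArG box of serum response factor (itself a MADS-box protein) and the PU.1 site in capitals.
Dusp8 promoter, chr7:142095235-142095534, minus strand: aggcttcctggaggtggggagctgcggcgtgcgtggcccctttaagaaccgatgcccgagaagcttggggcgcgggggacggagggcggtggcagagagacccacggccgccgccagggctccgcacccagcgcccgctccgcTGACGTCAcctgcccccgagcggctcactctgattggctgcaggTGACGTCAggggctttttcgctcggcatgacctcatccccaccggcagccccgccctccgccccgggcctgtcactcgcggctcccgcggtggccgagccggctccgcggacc
Dusp16 promoter, chr6:134792579-134792878, minus strand: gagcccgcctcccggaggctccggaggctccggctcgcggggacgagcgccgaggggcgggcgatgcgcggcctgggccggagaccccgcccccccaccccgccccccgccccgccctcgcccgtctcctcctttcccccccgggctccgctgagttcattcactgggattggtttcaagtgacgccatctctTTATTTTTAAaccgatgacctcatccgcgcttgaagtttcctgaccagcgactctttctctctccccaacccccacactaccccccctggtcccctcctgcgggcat
Dusp1 promoter, chr17:26508423-26508722, minus strand: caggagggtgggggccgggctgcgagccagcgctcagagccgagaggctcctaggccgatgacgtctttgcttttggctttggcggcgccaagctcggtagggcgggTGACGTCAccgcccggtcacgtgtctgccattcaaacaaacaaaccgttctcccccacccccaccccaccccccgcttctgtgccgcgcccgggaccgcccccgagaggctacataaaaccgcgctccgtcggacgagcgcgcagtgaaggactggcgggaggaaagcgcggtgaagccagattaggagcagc
Dusp5 promoter, chr19:53528895-53529194, plus strand: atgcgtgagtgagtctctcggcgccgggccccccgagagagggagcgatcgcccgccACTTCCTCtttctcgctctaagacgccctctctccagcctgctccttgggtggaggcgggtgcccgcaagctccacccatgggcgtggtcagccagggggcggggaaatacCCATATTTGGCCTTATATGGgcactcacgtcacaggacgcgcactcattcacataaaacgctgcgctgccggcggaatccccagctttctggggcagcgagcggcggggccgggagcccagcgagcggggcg
Dusp8 held 2 CREs and Dusp1 held 1, and of the Ptpn promoters that of Ptpn11 held 1, where 2.23% of all 21263 promoters in the table did. The MEF2 consensus was found in the Dusp16 promoter and in that of Dusp27, which had no peak, and in 0 of 19 Ptpn promoters, beside 2.74% of all promoters. Dusp5 had the only CArG match of the member promoters, a run of adjoining elements, beside 1.52% of all promoters, and its capitals also mark a PU.1 site farther upstream. The median GC content was 61% in the Dusp promoters and 63.3% in the Ptpn promoters, beside 56.3% in all. The GC box was found in 13 of 21 Dusp and 13 of 19 Ptpn promoters, beside 46.2% of all. The E-box was found in 7 Dusp and 4 Ptpn promoters, beside 19.7%, and the ETS site in 1 and 4, beside 11.6%. The EBF1 motif was found in 0 and 2, beside 0.959%, and NF-kB sites in 1 and 2, beside 9.25%. RUNX sites were found in 0 and 1, beside 4.71%, and AP-1 sites in 1 and 0, beside 4.66%. The PU.1 site and the ETS-IRF composite were each found in 1 and 0, beside 3.13% and 2.53%.

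MEF2A peaks were assigned to most genes of both families. On mm10, 16 of 24 Dusp genes (66.7%) and 16 of 17 Ptpn genes (94.1%) had at least 1 optimal peak, against 50.1% of all protein-coding genes. The median number of peaks per gene was 1.5 for Dusp and 3 for Ptpn genes, against 1 for other protein-coding genes. Among genes with a peak, the median signal of the strongest was 62.05 in Dusp and 54.75 in Ptpn genes, against 42.8 in other genes. Counting only summits within 1 kb of a TSS, it was 31.4 and 28.5, against 35.1. Within 10 kb, with gene bodies left out, it was 62.05 and 36.1, against 39.7, and on mm9 126.6 and 61.8, against 65.05. Over all optimal peaks counted, the median signal was 31.4 for Dusp and 31.9 for Ptpn genes, against 34.2 for other genes. In the mm9 list, 12 Dusp genes (50%) and 13 Ptpn genes (76.5%) had a peak, against 33.4% of all protein-coding genes. With each replicate taken alone, as many of its strongest intervals as the optimal set has peaks, replicate 1 gave 17 Dusp and 15 Ptpn genes and replicate 2 gave 16 and 14, against 51.1% and 51.2% of other genes.

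**Figure D1:**
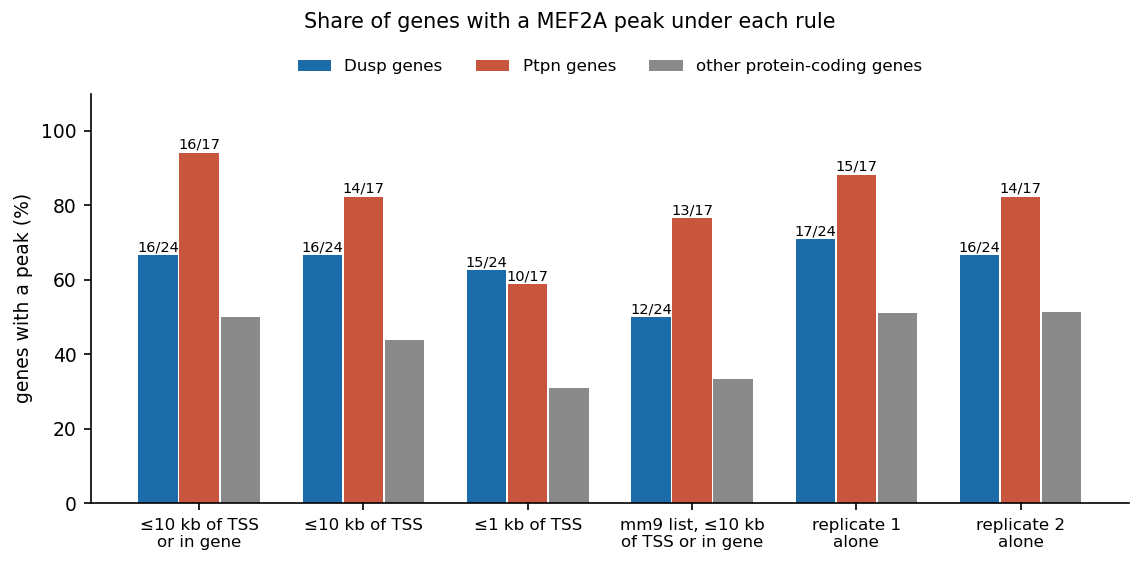
Percent of genes with a MEF2A peak (vertical axis) under 6 rules, in Dusp genes, Ptpn genes and other protein-coding genes, with counts of genes above the family bars. Both families stand above other genes under every rule shown, and the 2 families are nearly level only for summits within 1 kb of a TSS.

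The 2 families were closest at the promoter. Within 1 kb of a TSS, 15 of 24 Dusp genes (62.5%) and 10 of 17 Ptpn genes (58.8%) had a summit, against 30.9% of all protein-coding genes. Within 10 kb, with gene bodies left out, the counts were 16 Dusp and 14 Ptpn genes (66.7% and 82.4%), against 43.8% of all protein-coding genes. Of the 65 Dusp peaks, 26 (40%) lay within 1 kb of a TSS and 27 (41.5%) elsewhere in the gene, whereas 20 of 69 Ptpn peaks (29.0%) lay within 1 kb and 38 (55.1%) elsewhere in the gene. For other genes the shares were 34.2% and 53.3%. The strongest peak was a promoter peak in 8 of 16 Dusp genes and 5 of 16 Ptpn genes, and lay inside the gene, over 1 kb from a TSS, in 6 Dusp and 10 Ptpn genes. The place of the strongest peak was not counted for other genes. The median distance to the TSS was 1971 bp for Dusp and 6884 bp for Ptpn peaks, against 4936 bp for peaks of other genes. With 24 and 17 genes and no second condition, these family differences have no test.

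Gene length differed between the families, and the counting rule gives a long gene more room. The median length was 11.85 kb for Dusp and 59.1 kb for Ptpn genes, against 17.3 kb for other genes. Among genes from 10 to 50 kb, 8 of 12 Dusp and 5 of 5 Ptpn genes had a peak, against 54.8% of other genes. Among genes over 50 kb the counts were 2 of 2 Dusp and 11 of 12 Ptpn genes, against 65.3%. Among genes under 10 kb, where there is no Ptpn gene, 6 of 10 Dusp genes had a peak, against 35% of other genes. Per 100 kb of searched sequence (the gene plus 10 kb around its start), Dusp genes had 9.19 peaks and Ptpn genes 4.85, against 2.12 in other genes. The order of the families by peaks per length is thus the reverse of their order by peaks per gene. The 2.12 is pooled over other genes of every length. Peaks per length were not counted by length class, so these densities have no comparison with genes of like length.

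**Figure D2:**
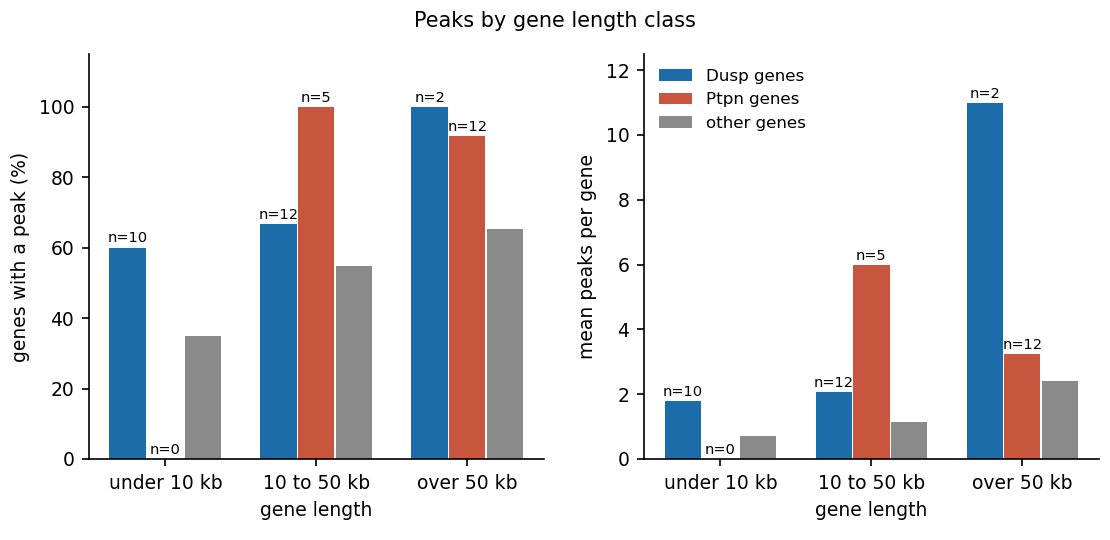
Percent of genes with a peak (left) and mean peaks per gene (right) by gene length class, for Dusp, Ptpn and other protein-coding genes, with the number of family genes above each bar. The bar of 11 peaks per gene for Dusp genes over 50 kb rests on 2 genes, Dusp16 and Dusp22, and there was no Ptpn gene under 10 kb.

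Some peaks have intervals that overlap a neighbour, and whether these mark 1 wider bound stretch was not tested. Optimal intervals that overlapped were merged, which left 51 stretches for the 65 Dusp peaks and 61 for the 69 Ptpn peaks. Of these, 10 Dusp and 8 Ptpn stretches joined several intervals, up to 4 at Dusp1. Among all 28754 stretches 2610 did, also with up to 4 intervals. Merging also raised the Dusp stretches found among the 31497 strongest intervals of each replicate, to 44 of 51 (86.3%) in replicate 1 and 46 (90.2%) in replicate 2, beside 76.0% and 84.1% of all 28754 stretches. For Ptpn stretches the counts were 45 of 61 (73.8%) and 52 (85.2%).

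Among the nuclear MKPs, all 4 of which had a peak against 50.1% of all protein-coding genes, Dusp5 carried the strongest. Dusp5 encodes a phosphatase selective for ERK. Its strongest peak (chr19:53536846-53536969, mm10) had signal 151 and rank 1155, and lay in the gene, 7803 bp from the TSS, in an intron by the mm9 annotation. It ranked 1569 in replicate 1 and 1069 in replicate 2, while the 2 overlapping Dusp5 promoter intervals ranked 21807 and 30990 and matched ranks of 70971 in replicate 1 and 17725 in replicate 2. Dusp2, which is known for its expression in activated lymphocytes and other blood cells, had 6 peaks around a gene of 2.22 kb. All 6 were also counted for another gene, and the peak downstream of Dusp2 lay 244 bp from the TSS of Astl. The strongest Dusp2 peak, 729 bp upstream, had signal 69.2 (rank 5079, with ranks 6097 in replicate 1 and 4215 in replicate 2). Of the 6 intervals 3 overlap in 1 stretch of 770 bp. Dusp4 had its strongest peak 8581 bp into the gene (signal 62.6, rank 6043, ranks 6775 and 6317 in replicates 1 and 2) and a weak pair of overlapping promoter intervals.

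Dusp1 differed from the other nuclear MKPs in the form of its peaks. Dusp1 encodes the archetypal MKP, an immediate early gene that acts on p38, JNK and ERK. Its 4 intervals overlapped in 1 stretch of 1102 bp across the promoter (chr17:26508007-26509108, mm10), with signals of 31.0, 27.0, 19.9 and 13.0 and a best rank of 18631. The interval of best rank had no counterpart in the replicate 1 list and ranked 9630 in replicate 2, and the neighbouring interval ranked 5568 in replicate 1 and 112624 in replicate 2. Over the merged stretch both replicates held an interval of middle rank, 5568 and 9630, but on different parts of it. Dusp1 had no mm9 peak.

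Of the ERK-selective cytoplasmic MKPs, 2 of 3 had a peak, against 50.1% of all protein-coding genes. Their strongest signals lay above that of Dusp1 and below those of the other nuclear MKPs. Dusp7 had signal 47.4 (rank 9685) at a peak 3372 bp into the gene, with ranks of 10852 in replicate 1 and 11040 in replicate 2. Dusp6, a feedback phosphatase of ERK, had its strongest peak 5765 bp downstream of its TSS, beyond the end of the gene (signal 36.0, rank 15096, ranks 10567 and 10708), and a stretch of 2 promoter intervals of nearly equal signal, 31.4 and 31.1. Dusp9, on the X chromosome, had no peak in either list.

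The MKPs selective for JNK and p38 included the strongest peak of any member under the counting rule used. With each peak given only to the gene of the nearest TSS, a peak of rank 162 put Dusp22 first. The single Dusp8 peak (chr7:142095230-142095463, mm10), 64 bp upstream of its TSS, had signal 260.5 and rank 272 of 31497, and ranked 211 in replicate 1 (signal 112) and 358 in replicate 2 (signal 147). The strongest of the 6 Dusp16 peaks (chr6:134792572-134792748), 36 bp upstream of the RefSeq promoter start, had signal 193 and rank 653, and ranked 643 in replicate 1 and 688 in replicate 2. Both promoter peaks were also near the top of the mm9 list, at ranks 293 and 446. Dusp10 had 5 peaks, with signals from 21.5 to 40.8, on either side of the median of 34.9 of the optimal set. Its strongest (rank 12380, 18683 bp into the gene) ranked 20151 in replicate 1 and 11526 in replicate 2.

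The atypical Dusp genes, which lack the MAP kinase binding domain, had a peak in 7 of 14 cases (50%), against 9 of 10 typical MKPs and 50.1% of all protein-coding genes, so their share was near that of all genes. Dusp22, whose product acts on the JNK pathway and on Lck in T cells, had 16 peaks, a number reached or passed by 75 of the other genes (0.349%). These counts are of unmerged peaks, in genes of any length. Dusp22 spans 51.2 kb, and some of its intervals overlap, with 3 in a stretch of 842 bp. Its 2 strongest peaks, 26044 and 28367 bp from the TSS (signals 183 and 176, ranks 757 and 819), ranked 784 and 762 in replicate 1 and 760 and 988 in replicate 2, and a promoter peak 293 bp upstream had signal 121 and rank 1799. Dusp14, whose product limits T cell receptor signalling, had 8 peaks, within 5035 bp upstream and 4332 bp downstream of its TSSs. The strongest (chr11:84067064-84067219) had signal 194 and rank 643, and ranked 774 in replicate 1 and 550 in replicate 2. It lay 1229 bp from the nearest RefSeq promoter start, but 61 bp from a TSS in the mm9 annotation.

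The other atypical genes had 1 or 2 peaks each or none. Dusp3, whose product acts on ERK and JNK, had signal 102 and rank 2510 at a peak 642 bp downstream of its TSS, with ranks of 2077 in replicate 1 and 2947 in replicate 2. Dusp12, whose product has a zinc-binding domain, had signal 61.5 and rank 6217 at 64 bp from its TSS, with ranks of 9020 and 5579. The peak counted for Dusp13 (signal 33.0, rank 17082) lay 38 bp from the TSS of Samd8. Dusp28 and Dusp18 had weak promoter peaks (signals 21.8 and 21.1, ranks 26944 and 27389), and each was outside the 31497 strongest intervals of 1 replicate. Dusp1, Dusp13, Dusp18 and Dusp28 are the Dusp genes with a peak on mm10 only. Dusp11, Dusp15, Dusp19, Dusp21, Dusp23, Dusp26 and Dusp27 had none in either list, like Dusp9. With replicate 1 alone, Dusp11 was counted too.

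**Figure D3:**
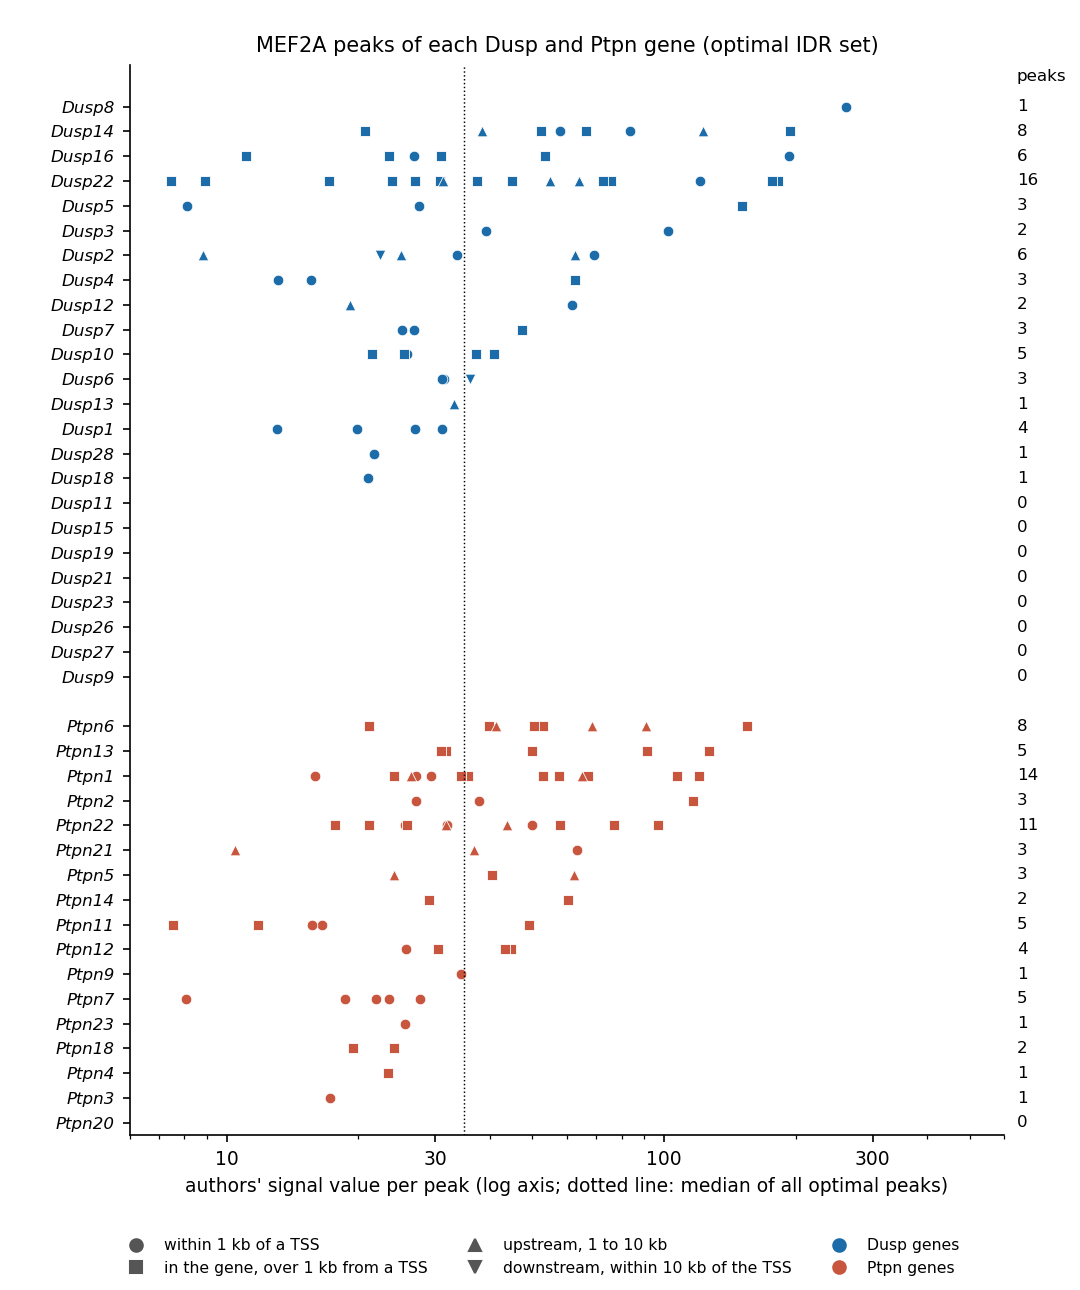
Authors' signal value of every optimal peak (log axis) for each of the 41 genes, with the position of the peak as the marker shape and the number of peaks at the right; the dotted line is the median of all optimal peaks, 34.9. Dusp8 has the highest signal with 1 peak, Dusp22 and Ptpn1 have the most peaks, and 9 genes have none.

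Of the Ptpn genes with SH2 domains, Ptpn6 carried 8 peaks and the highest signal of its family. The strongest Ptpn6 peak (chr6:124723489-124723848, mm10) had signal 155 and rank 1083, and ranked 1162 in replicate 1 and 1103 in replicate 2. It lay 15040 bp into the gene, and the nearest TSS in the mm10 table was that of Phb2, 11380 bp away. In the mm9 annotation, which lists more start sites, the same place by rank (1100) was an intron 1846 bp upstream of an internal Ptpn6 TSS. No optimal Ptpn6 peak lay within 1 kb of a mm10 TSS of the gene, and its 3 upstream peaks were nearer to the TSS of Grcc10. On mm9, peaks lay 67 bp (rank 11817) and 716 bp (rank 7420) from a Ptpn6 TSS. Ptpn11, whose product promotes signalling to ERK, had 5 weaker peaks, the strongest 7932 bp into the gene (signal 49.2, rank 9074, ranks 7837 and 12348 in replicates 1 and 2).

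Ptpn1 and Ptpn2 encode closely related phosphatases, PTP1B and TC-PTP, which act on JAK kinases and receptor tyrosine kinases, and their strongest peaks were of similar rank. Ptpn1 had 14 peaks, the strongest 3882 bp from its nearest TSS (chr2:167936029-167936388, signal 120.2, rank 1822, with ranks 1481 in replicate 1 and 2107 in replicate 2). The next, 10908 bp from the TSS, had signal 107 and rank 2278, with ranks 1832 and 2542. On mm9, the peaks 3882 and 10908 bp from a Ptpn1 TSS hold the 2 MEF2 elements printed above. Ptpn2 had 3 peaks, the strongest 28708 bp into the gene (signal 116, rank 1935, ranks 1574 and 2489), and an overlapping pair at the promoter (signals 37.8 and 27.1).

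In the PEST group, Ptpn22 had 11 peaks, the strongest 12436 bp from the nearest TSS (chr3:103872533-103872892, signal 96.6, rank 2794, with ranks 2896 in replicate 1 and 2762 in replicate 2). Ptpn12, whose product acts on cytoskeletal adaptors, had 4 peaks, from signal 25.7 at the promoter to 44.7 (rank 10666) in the gene. Ptpn18 had 2 peaks of low signal in the gene, 24.1 and 19.5, and the stronger ranked 108495 in replicate 1 and 11027 in replicate 2.

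All 5 FERM-domain genes had a peak, and all 5 are over 50 kb long, a class in which 65.3% of other genes had one. Within 10 kb of a TSS, with gene bodies left out, 3 of the 5 had a peak, against 43.8% of all protein-coding genes. Within 1 kb 2 of the 5 did, against 30.9%. Per 100 kb searched, Ptpn21 had 4.23 peaks and Ptpn13 2.73. Ptpn14 (1.26), Ptpn3 (0.632) and Ptpn4 (0.512) lay below the 2.12 pooled over other genes of every length. Ptpn14, Ptpn3 and Ptpn4 span 148.5, 148.2 and 185.1 kb, and no density was counted for other genes of such length. Ptpn13, which encodes a large scaffold phosphatase with PDZ domains, had 5 peaks over 173 kb, all inside the gene and over 12 kb from the TSS, the strongest with signal 126 and rank 1652 (1395 in replicate 1 and 1897 in replicate 2). Ptpn21 had its strongest peak 54 bp upstream of a TSS (signal 63.2, rank 5947, ranks 4308 and 8826). Ptpn14, whose product restrains the transcriptional coactivator YAP, had 2 peaks in the gene, and the stronger (signal 60.3, rank 6440) ranked 2549 in replicate 1 and 19125 in replicate 2, the widest gap among the 8 strongest Ptpn genes. Ptpn4 and Ptpn3 had 1 weak peak each (signals 23.3 and 17.3, ranks 25608 and 28778), outside the 31497 strongest intervals of both replicates, and no mm9 peak.

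The 2 Ptpn genes with a kinase interaction motif, which bind ERK and p38, differed in the place of their peaks. Ptpn7, which is expressed in blood cells, had 5 peaks, all within 1 kb of one of its TSSs and all below the median signal of the optimal set. They ranged from 8.06 to 27.7, with a best rank of 21608 (18259 in replicate 1 and 30506 in replicate 2). Ptpn5, best known from neurons, had its strongest peak in a stretch of overlapping intervals 6114 to 6314 bp upstream (signals 62.3 and 24.2, best rank 6091, ranks 8465 and 5638 in replicates 1 and 2). Its other peak, 18981 bp into the gene, had signal 40.3 and rank 12602. Ptpn9, whose product carries a lipid-binding domain, had 1 promoter peak (signal 34.4, rank 16108, ranks 16603 and 14255) and none on mm9. Ptpn23, which acts in endosomal sorting, had 1 promoter peak (signal 25.6, rank 23510, ranks 17802 and 28231). Ptpn20 was the Ptpn gene with no peak in either list. Ptpn3, Ptpn4 and Ptpn9 had a peak on mm10 only, and no gene of either family had one on mm9 only.

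**Figure D4:**
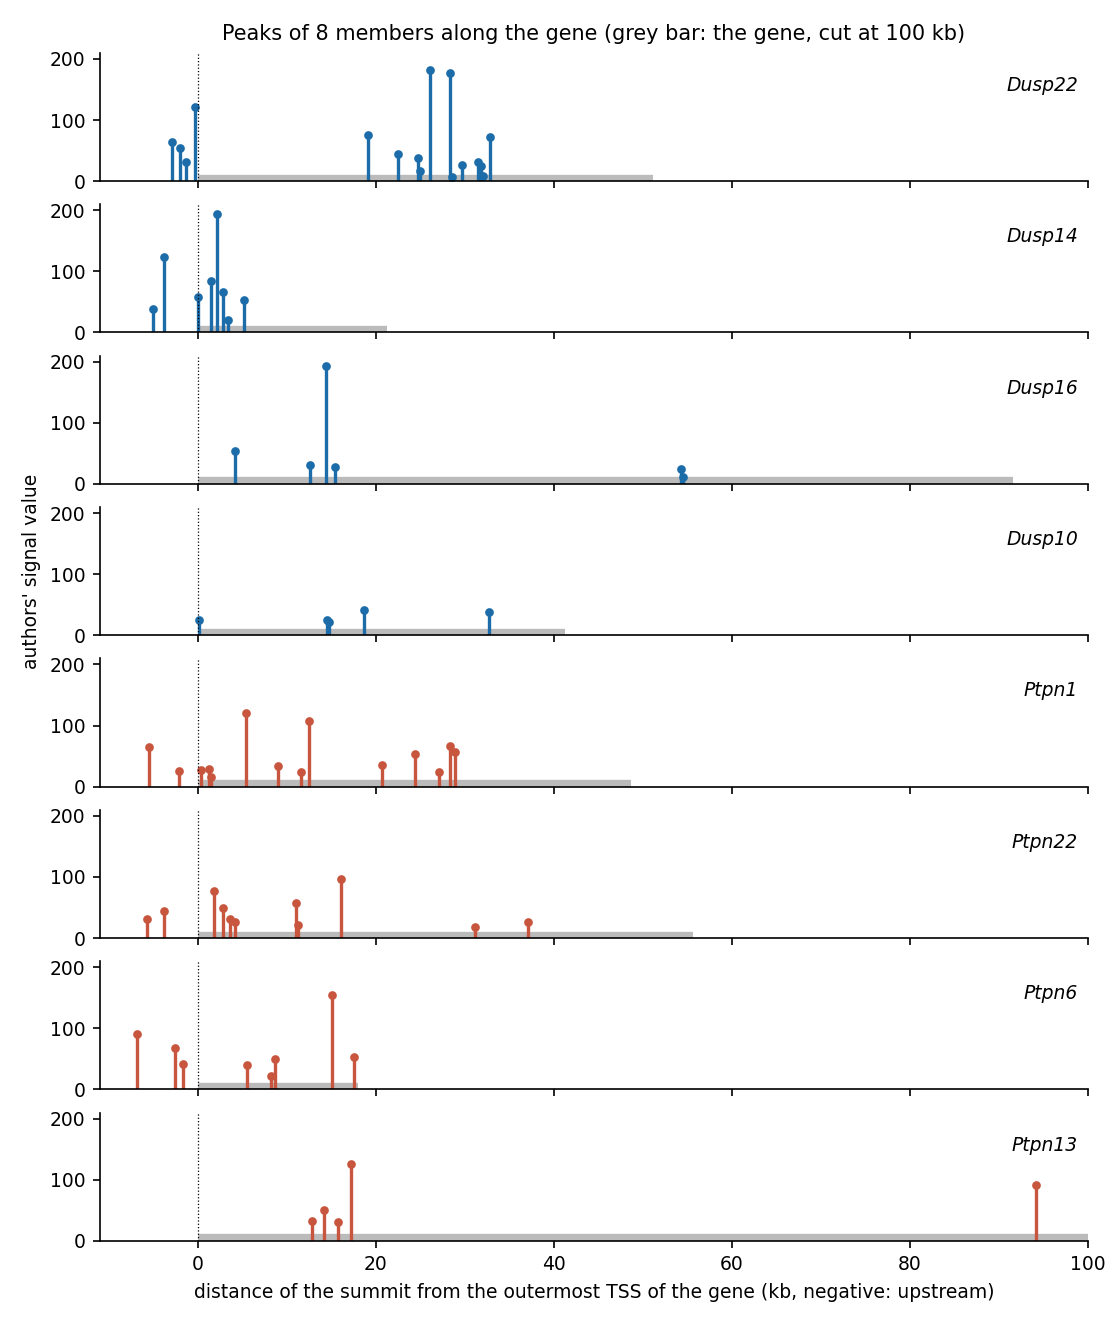
Signal value of each optimal peak against the distance of its summit from the outermost TSS, in kb, for 8 members with 5 or more peaks; the grey bar is the gene. Dusp14 peaks lie near the start, the strongest Dusp16 peak sits at an inner promoter, and Dusp22, Ptpn1 and Ptpn13 have strong peaks far inside the gene.

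Replicate ranks were compared for the 127 member peaks with an interval in both replicate lists. Ranks differed by a median factor of 1.70 in Dusp and 1.63 in Ptpn peaks, and Spearman's rho between the replicates was 0.66 in Dusp (n = 62) and 0.65 in Ptpn peaks (n = 65), given as a description since neighbouring peaks share stretches and libraries. Of the 65 Dusp peaks, 52 (80%) had an overlapping interval among the 31497 strongest of replicate 1 and 55 (84.6%) among those of replicate 2. Of the 69 Ptpn peaks, 51 (73.9%) and 57 (82.6%) did, beside 75.7% and 83.0% of all optimal peaks. The strongest peak was in the first 31497 of both replicates for 13 of 16 Dusp genes and 13 of 16 Ptpn genes, a count not made for other genes. The exceptions were Dusp1, Dusp18, Dusp28, Ptpn3, Ptpn4 and Ptpn18. Members with a peak in the strongest 10% of the optimal set, ranked 3149 or better, were Dusp8, Dusp14, Dusp16, Dusp22, Dusp5 and Dusp3, and Ptpn6, Ptpn13, Ptpn1, Ptpn2 and Ptpn22. Each of these 11 also ranked 2947 or better in both replicates. The optimal set was made from these same replicates, so this follows in part from the choice of the 11. The share of other genes with a peak in the strongest 10% was not counted.

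**Figure D5:**
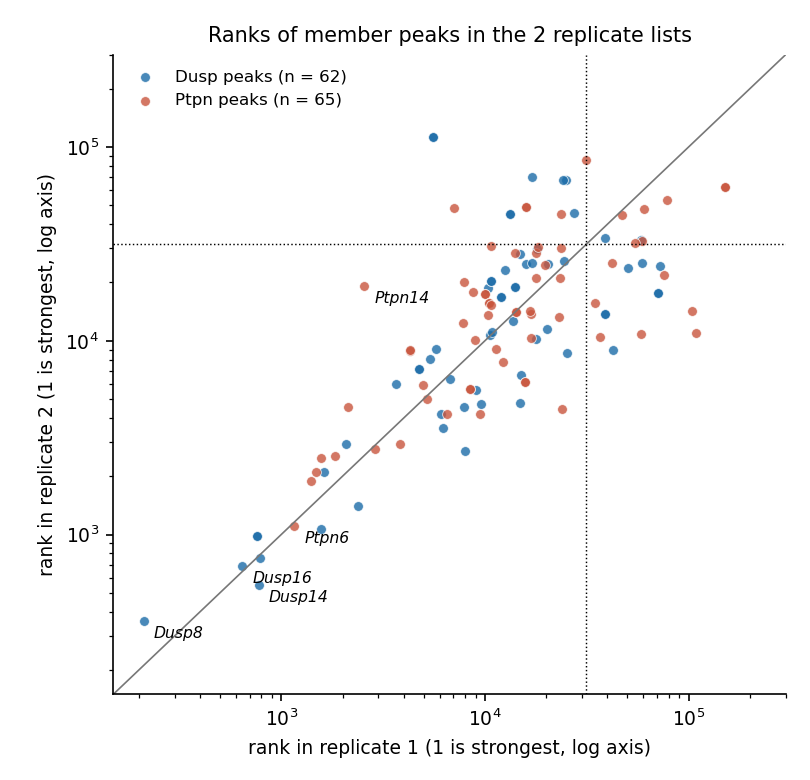
Rank of each member peak in replicate 1 (horizontal) and replicate 2 (vertical), both on log axes, for 62 Dusp and 65 Ptpn peaks; the line marks equal ranks and the dotted lines rank 31497. The strongest peaks, led by Dusp8, lie close to the line and the weaker ones spread around it.

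Genes that act beside these phosphatases were read in the same way, with 50.1% of all protein-coding genes as the comparison. Of the MAP kinases, the substrates of the MKPs, 6 of 10 had a peak, among them Mapk14 (signal 103, rank 2459) and Mapk12 (signal 65.9, rank 5544). Of receptors and adaptors that recruit the SH2-domain phosphatases, 14 of 18 had a peak, led by Pdcd1 (258, rank 282), Cd22 (220.5, rank 441) and Pecam1 (173, rank 855). Of the Src family kinases with Csk, which phosphorylates their inhibitory tyrosine, and its adaptor Pag1, 9 of 10 had a peak, led by Lyn (444, rank 8), Csk (260.3, rank 274) and Lck (234, rank 384).

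Receptor-type phosphatases are the transmembrane relatives of the Ptpn family. Of the 21 genes with such a symbol, 12 had a peak, and 7 had one within 10 kb of a TSS. The highest signals were at Ptprj (268, rank 245) and Ptprc (191, rank 665), which encodes the CD45 protein that activates Src family kinases, and then at Ptprs (72.0, rank 4718). The list holds Ptprcap, with 5 peaks, whose product binds that protein and is no phosphatase. Of other cysteine-based phosphatases 9 of 17 had a peak, led by Ptp4a2 (173, rank 860), Ptp4a3 (117, rank 1918) and Ssh2 (72.5, rank 4666). Of feedback inhibitors of ERK signalling 9 of 13 had a peak, led by Nf1 (211.5, rank 486), Spred3 (174, rank 849) and Spred2 (59.2, rank 6632). The shares of the MAP kinases (60%), the receptor-type genes (57.1%) and the other cysteine-based phosphatases (52.9%) were near that of all protein-coding genes. Those of the feedback inhibitors (69.2%), the recruiters (77.8%) and the Src family kinases (90%) were higher, and lists of 10 to 21 genes carry no test here. These shares are not adjusted for gene length. The median length was 46.1 kb in the Src list and 150.9 kb in the receptor-type list, against 17.3 kb for other genes. Of other genes over 50 kb, 65.3% had a peak. Within 10 kb of a TSS, 8 of 13 feedback inhibitors, 12 of 18 recruiters and 7 of 10 Src list genes had a peak, against 43.8% of all. So did 6 of 10 MAP kinases, 9 of 17 other cysteine-based phosphatases and 7 of 21 receptor-type genes. The receptor-type share was then below that of all genes.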

How the data were processed

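The analysis started from 6 deposited narrowPeak files: on mm10 a relaxed list for each replicate, 1 for the pool, and the optimal and conservative sets, and 1 list on mm9. Per the accompanying texts, a control file entered the relaxed calls, which were made on single replicates and on the pool, and the optimal and conservative sets combine those calls. The mm9 peaks come from the mm9 alignments of replicates 1 and 2, with no control named. The peak caller and aligner are not given in any source used here. The signal in column 7 is deposited as the authors gave it and was used as a rank. The nominal q-value in column 9, deposited by the authors, falls below 0 in several lists, so it was treated as a score that only breaks ties. The summit offset in the deposited lists gave each summit.

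Genes came from RefSeq GRCm38.p6 for mm10 and GENCODE vM1 for mm9. On mm10, 21536 of 21887 protein-coding genes (98.4%) had a usable TSS: the outermost one together with those of the RefSeq promoter table, or, for 4044 genes including 8 members, the outermost one with its strand from GENCODE vM1. The mm9 counts use all protein-coding transcripts, as planned for both builds. Sequence was held for mm9 and for the mm10 promoter table, and no coordinates were converted. A replicate interval matched a peak when they overlapped by 1 bp or more, and the strongest was taken. Assignment and matching were tested on simulated data. Scripts used matplotlib 3.10.9, scipy 1.17.1, pandas 2.3.3 and numpy 2.4.6 under Python 3.11.15. Coordinates are 1-based.

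Values are given for the 8 members of each family with the highest signal, every typical MKP, Ptpn1, Ptpn2, Ptpn6, Ptpn7, Ptpn11, Ptpn22, members whose call differs between the builds, and the 3 strongest genes of each pathway list, of which 1 is not reported here. The members and lists were chosen with earlier results of these data known. With 1 group of 2 samples no test was made. Alternatives varied the peak set, build, TSSs, distance, peak-to-gene rule, replicates, overlap and motif window.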

Additional observations from a re-analysis of the deposited data

How the results depend on the processing

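The share of Dusp genes with a peak exceeded that of other genes by 14.8 to 31.6 percentage points under every setting run, the main value being 16.6. For Ptpn genes the excess was 44.0 points, and 26.3 points with the stronger 50% of optimal peaks, 28.0 within 1 kb of a TSS and 25.6 within 50 kb or in the gene. The count of Ptpn genes was 10 with the stronger 50% of peaks and 10 within 1 kb. The difference of Dusp minus Ptpn was -27.5 points and reversed to 3.68 within 1 kb of a TSS. It was -8.82 with the stronger 50% of peaks and -10.8 within 50 kb or in the gene. Leaving out a replicate gave 16 to 17 Dusp and 14 to 15 Ptpn genes, and a difference of -17.4 to -15.7 points.

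With an overlap of 50% of both intervals, the Dusp peaks found among the strongest of replicates 1 and 2 fell to 66.2% and 70.8%, and with summits within 100 bp to 64.6% and 69.2%. The Ptpn peaks of replicate 1 fell to 60.9% and 53.6%. These stricter rules were not applied to all optimal peaks, so the falls have no comparison. The MEF2 core in place of the consensus gave 7 Dusp peaks, and the whole interval gave 8 Ptpn peaks with the consensus. Of 274 ranks of named genes under alternatives, 220 stayed within the factor between their replicate ranks and 54 did not. Alternatives that left a gene without a peak, such as the conservative set for Ptpn3, are not among the 274. The factor was widest where the replicates differed most, and was set to 2 where a replicate had no match, as at Dusp1. With each peak given only to the gene of the nearest TSS, the best rank was 1216 for Dusp1 (main value 18631), 861 for Dusp10 (12380), 1555 for Ptpn11 (9074), 162 for Dusp22 (757) and 8720 for Ptpn6 (1083). Within 50 kb or in the gene it was 321 for Dusp1, 1977 for Ptpn7 (21608) and 438 for Ptpn6. The outermost TSS alone on mm10 and the merged stretches were chosen after seeing the data, and the outermost TSS alone changed no member count.

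No paired analysis was possible because the series has 1 group of 2 samples. Read depth is unknown, so weak peaks such as those of Ptpn3 or Dusp18 have no interval, and a gene without a peak is one below the authors' threshold. A peak within a gene is not tied to that gene, and 12 of 65 Dusp and 10 of 69 Ptpn peaks were also counted for another gene.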
